A study of Homo sapiens with 8 samples.

Results

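The genes described here are 10 enzymes and subunits that write, read out or remove histone marks around repression: the Polycomb genes *EZH1*, *EZH2*, *SUZ12*, *EED* and *JARID2*, the histone deacetylases *HDAC1* and *HDAC2*, the H3K27 demethylases *KDM6A* and *KDM6B*, and the H3K4 methyltransferase *KMT2D*. They were chosen by symbol as chromatin partners that a repressor such as EN1 could use, and all 10 were found by their NCBI gene numbers among the 25702 genes of the deposited tables. *KDM6A* was listed at 0 in every library, and the other 9 passed the filter on low counts. RNA-seq was performed on SUIT2, an established human pancreatic ductal adenocarcinoma (PDA) cell line grown in 2D, in 8 libraries. The 4 libraries labelled shScr replicates 1 to 4 came from cells given a scramble shRNA. The 4 shEN1 libraries carried an shRNA against *EN1*, 2 of them construct shEN1 #1 and 2 construct shEN1 #2. All groups therefore share 1 parental line and an shRNA vector, with no untransduced cells among them, and no label says that replicates came from separate cultures. P-values here thus measure only the spread between these libraries, which may be technical.

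Polycomb repressive complex 2 (PRC2) places methyl groups on lysine 27 of histone H3, a mark of silenced developmental genes. Its catalytic subunit is EZH2 or the related EZH1, and neither works without SUZ12 and EED. KDM6A and KDM6B remove the same methyl groups, KMT2D methylates H3K4 at enhancers in a complex that contains KDM6A, and HDAC1 and HDAC2 take acetyl groups off histones within complexes such as SIN3, NuRD and CoREST, which leaves the H3K27 residue free for methylation.

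The libraries held between 33423590 and 37810604 counts and differed little in depth. Levels are given as CPM, the read count scaled to a library size normalized with TMM (trimmed mean of M-values). In these libraries the target of the shRNAs did not follow the labels. The study describes depletion of *EN1* in SUIT2 with both constructs, measured by quantitative PCR. In shScr replicates 1 to 4, as labelled, *EN1* stood at 4.10, 4.50, 4.93 and 2.51 CPM, in those labelled shEN1 #1 at 5.77 and 5.41 CPM, and at 1.35 and 6.70 CPM in those labelled shEN1 #2. In 3 of the 4 libraries labelled shEN1 it was above every library labelled shScr, so each direction given between labels is a direction between labelled libraries. The library labelled shScr replicate 4 and that labelled shEN1 #2 replicate 1 also stood apart from the other 6 and were each other's nearest library. *EN1* was lower in this pair, at 2.51 and 1.35 CPM, than in any other library. Whether *EN1* has a part in this split was not tested. In this pair the epithelial markers *KRT7*, *KRT19*, *EPCAM* and *CDH1* were lower and *ACTA2* was higher than in any other library. The epithelial markers *KRT8* and *KRT18* did not follow. *KRT8* was lowest in the library labelled shEN1 #1 replicate 1 (6092 CPM) and *KRT18* in shScr 3 (3584 CPM). *COL1A1* was highest in shScr 3, outside the pair. Epithelial identity was present in all 8 libraries, with *KRT8* at 6092 CPM or more, and of 12 markers of other cell types 6 were at 0 in every library, namely the leukocyte markers *PTPRC* and *CD3E*, the fibroblast marker *DCN*, the acinar marker *CPA1* and the endocrine markers *INS* and *GCG*. The other 6 had reads. The macrophage marker *CD68* was at 7.74 to 34.6 CPM, *ACTA2* of smooth muscle and myofibroblasts at 2.13 to 15.5 CPM and the collagen gene *COL1A1* at 1.02 to 3.99 CPM, while the acinar *PRSS1* and the endothelial *VWF* and *PECAM1* had at most 0.553, 0.412 and 0.602 CPM. In such bulk samples, fewer cells of a type and less RNA per cell cannot be told apart.

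The plot of levels by library shows that the members spanned a wide range and that the libraries of both labels were interleaved for each of them. *HDAC1* had the most counts and *JARID2* the fewest of the 9. Levels can be set against each other between genes only per length, and CPM was divided by the length in kilobases (kb) of the gene's canonical transcript. On this scale the mean of the 8 libraries was 174 CPM per kb for *HDAC1*, 32.5 for *EED*, 26.2 for *EZH2*, 20.4 for *SUZ12*, 17.2 for *HDAC2*, 8.38 for *KMT2D*, 3.20 for *KDM6B*, 2.58 for *EZH1* and 1.46 for *JARID2*. In this order 3 pairs of neighbours overlapped over the libraries, namely *EED* with *EZH2*, *SUZ12* with *HDAC2* and *KDM6B* with *EZH1*. The ranges of the other neighbours did not overlap, narrowly so for *EZH2* over *SUZ12* (at least 23.5 against at most 23.1) and for *EZH1* over *JARID2* (at least 1.88 against at most 1.82). The order depends on the length used. Dividing by coding length leaves reads outside the coding sequence in the count, which raises genes with long untranslated parts. Per kb of coding sequence *HDAC2*, at a mean of 114 CPM per kb, came after *HDAC1* and above *EED* (51.3), *SUZ12* (41.4) stood above *EZH2* (30.9) in every library, and *EZH1* (5.34) above *KDM6B* (4.36) with overlapping ranges.

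**Figure D1:**
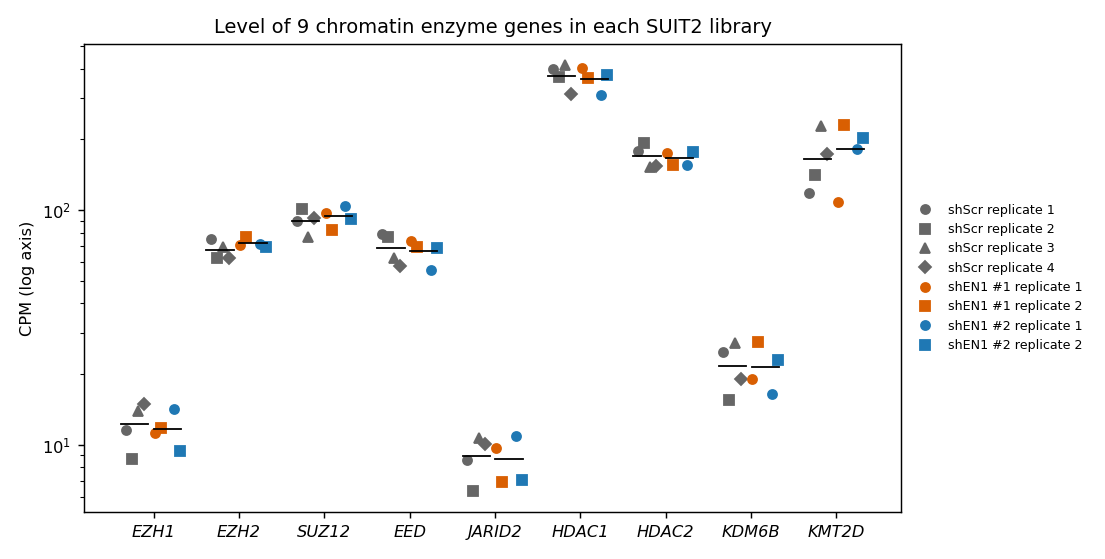
CPM of 9 members (log axis) in each of the 8 libraries; grey points are libraries labelled shScr, orange shEN1 #1 and blue shEN1 #2, marker shapes are replicates, and black lines are the means of the 4 libraries of a label. The 4 shScr and 4 shEN1 libraries overlap for all 9 genes, and *KDM6A*, at 0 in every library, is not drawn.

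Between the labels, none of the 9 tested members passed the test. The quasi-likelihood test of edgeR with Benjamini-Hochberg adjustment called 0 of 14333 genes (0%) between the 4 shEN1 and the 4 shScr libraries, and DESeq2 called 2 genes, *VAMP7* and an identifier without a symbol, named after their values were seen and neither of them a member. At an unadjusted p below 0.05 edgeR took 44 genes (0.307%), again with 0 of the 9 members, and DESeq2 took 39 genes and 0 members. The study reports far more differentially expressed genes in SUIT2 and states no threshold for this line. The labels did not overlap in CPM for 60 genes (0.419%), and for 0 members. On average 3 members were higher and 6 lower with the shEN1 label. The median log2 fold change of the 9 was -0.03, set beside -0.0028 for all genes tested, and the values ran from -0.08 for *EZH1* to 0.13 for *KMT2D*. The median SD of log2 CPM over the 8 libraries was 0.19 for the members and 0.26 for all genes tested, not matched for level.

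In a second fit, with 3 groups and 15129 tested genes, the constructs were set separately against the same 4 shScr libraries. For shEN1 #1, 0 genes (0%) passed the adjustment in edgeR and 102 (0.674%) had an unadjusted p below 0.05. For shEN1 #2 the counts were 0 (0%) and 59 (0.39%). Between the constructs themselves they were 0 (0%) and 177 (1.17%). No member was among any of these genes, and DESeq2 called 0 members in all 3 comparisons. The constructs share their control libraries, so their fold changes are not independent of each other. As the plot of log2 fold changes shows, the intervals of all members included 0 for both constructs, and they were wide, which leaves changes of the size of the interval undetected.

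**Figure D2:**
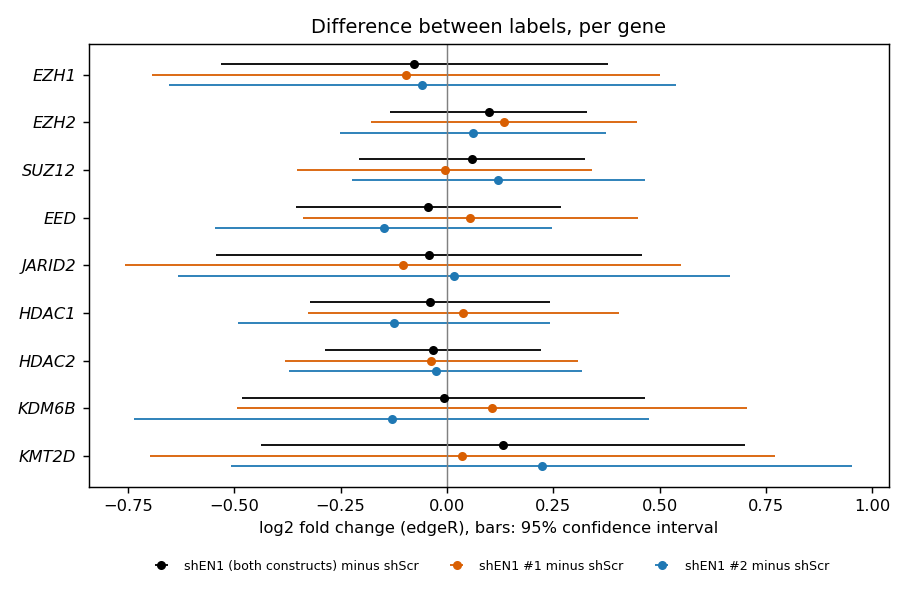
Log2 fold change from edgeR of 9 members with 95% confidence intervals; black is both constructs against shScr, orange shEN1 #1 and blue shEN1 #2 against the same 4 shScr libraries. Every interval includes 0, and the widest belong to *KMT2D*.

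Among the PRC2 core genes, *EZH2*, the main methyltransferase of dividing cells, was the steadiest member. It stood at 74.9, 62.4, 69.5 and 62.3 CPM in the libraries labelled shScr 1 to 4, at 70.8 and 76.8 CPM in those labelled shEN1 #1 and at 71.2 and 69.1 CPM in those labelled shEN1 #2. All 4 shEN1 libraries lay above the shScr mean of 67.3 ± 6.11 CPM (SD, n = 4), but below the library labelled shScr 1 in 3 cases. Between labels the log2 fold change was 0.10 (SE 0.10, 95% interval -0.13 to 0.33), with an adjusted p of 1.00 in the quasi-likelihood test of edgeR with Benjamini-Hochberg adjustment. Its SD of log2 CPM over the 8 libraries was 0.11, and 94.2% of the tested genes varied more. That share includes genes of all count levels and was not taken among genes of like level. *EZH2* lies on chromosome 7 (148504349 to 148581413, GRCh37, minus strand) and has 20 exons in its canonical transcript.

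*EZH1*, the paralog that is prominent in resting cells, was low and more variable. Its levels were 11.6, 8.71, 13.9 and 14.9 CPM in the libraries labelled shScr 1 to 4, 11.2 and 11.8 CPM with shEN1 #1 and 14.2 and 9.40 CPM with shEN1 #2. The highest values belonged to the libraries labelled shScr 3 and 4 and shEN1 #2 replicate 1, and the lowest to shScr 2 and shEN1 #2 replicate 2, so both labels covered the same range. With the shEN1 label the log2 fold change was -0.08 (SE 0.21, 95% interval -0.53 to 0.38). The coefficient of variation within the shScr label was 22.6%, where counting error alone would give 4.84%.

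The ratio of the paralogs needs no library scaling. *EZH2* counts exceeded those of *EZH1* by 6.48, 7.16, 4.998 and 4.17 times in the libraries labelled shScr 1 to 4, by 6.32 and 6.53 times with shEN1 #1, and by 5.02 and 7.36 times with shEN1 #2. As a log2 ratio this was 2.48 ± 0.36 for shScr and 2.64 ± 0.23 for shEN1 (SD, n = 4 each), a difference of 0.16 that was smaller than either SD. Per kb of canonical transcript *EZH2* was 7.28 to 12.8 times as abundant as *EZH1*, and per kb of coding sequence 4.15 to 7.32 times. The order of the paralogs thus held in all 8 libraries on both length scales.

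The start regions of these 2 paralogs are shown because the paralogs differ several-fold in level in every library. Both are reference sequences from RefSeq (GRCh38.p14) that cover 250 bases before the annotated start and 30 bases after it, read 5′ to 3′ on the gene's strand. *EZH2* is at chr7:148884262-148884541 and *EZH1* at chr17:42745011-42745290, both on the minus strand. Capitals mark the E2F-type octamer TTTGGCGC and the CCAAT box, on either strand.

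EZH2: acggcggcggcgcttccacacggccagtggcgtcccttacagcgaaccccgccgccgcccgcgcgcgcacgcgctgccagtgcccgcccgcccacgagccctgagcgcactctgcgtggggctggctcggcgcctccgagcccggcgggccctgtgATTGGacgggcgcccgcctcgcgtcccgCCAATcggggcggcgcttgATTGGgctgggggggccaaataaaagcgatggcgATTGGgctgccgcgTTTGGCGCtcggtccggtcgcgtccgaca

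EZH1: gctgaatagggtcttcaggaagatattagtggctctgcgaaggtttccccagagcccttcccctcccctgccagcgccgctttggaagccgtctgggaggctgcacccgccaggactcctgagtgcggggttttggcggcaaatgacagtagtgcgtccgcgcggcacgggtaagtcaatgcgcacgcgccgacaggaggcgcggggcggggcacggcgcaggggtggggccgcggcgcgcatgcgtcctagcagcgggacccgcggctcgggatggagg

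This *EZH2* window holds 1 TTTGGCGC and 4 CCAAT boxes (CCAAT, or ATTGG on the other strand). The *EZH1* window holds neither, nor does a further RefSeq start window of *EZH2* at chr7:148883436-148883735. Of 35116 RefSeq start windows of 300 bases, searched on both strands, 0.65% hold TTTGGCGC and 34.6% hold CCAAT. Among the 13 windows of the members only the printed *EZH2* window holds the octamer. CCAAT is also in a window of *SUZ12*, *EED*, *JARID2*, *HDAC1* and *KDM6A*. The hexamer GGCGGG is in both printed windows over their 300 bases, 6 times for *EZH2* and 2 times for *EZH1*. It is in 45.0% of all windows. The homeodomain core TAATTA, a palindrome that reads alike on both strands, is in 0 of the 13 member windows and in 4.84% of all windows. These matches describe letters and say nothing about binding in these cells. Both printed windows are rich in G and C over their 300 bases, with 74.7% for *EZH2* and 67.0% for *EZH1*, where the median of all windows is 58.7%.

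**Figure D3:**
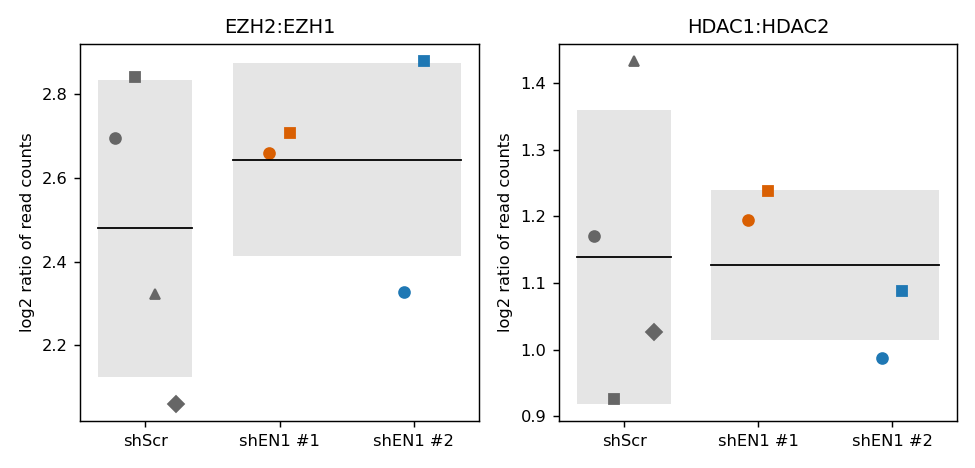
Log2 ratio of read counts of *EZH2* to *EZH1* (left) and of *HDAC1* to *HDAC2* (right) in each library; lines are the means of the 4 libraries of a label and grey bands ± 1 SD, with both shEN1 constructs under 1 mean. The bands of the labels overlap in both panels, and the vertical axes do not start at 0.

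*SUZ12*, the zinc finger subunit that holds the PRC2 core together, was measured at 89.7, 101, 76.9 and 92.4 CPM in the libraries labelled shScr 1 to 4. It was at 97.4 and 81.8 CPM with shEN1 #1 and at 104 and 91.8 CPM with shEN1 #2. The library labelled shScr 3 was lowest and shEN1 #2 replicate 1 highest, and the log2 fold change was 0.06 (SE 0.12, 95% interval -0.21 to 0.32). The partial copy *SUZ12P1* was counted under its own identifier at 1.09 to 3.98 CPM. Reads that match both copies could have gone to either or to neither, so a part of the *SUZ12* level is uncertain. The size of this part was not measured.

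*EED*, the subunit that binds trimethylated H3K27 and stimulates the enzyme, was at 78.9, 76.7, 62.3 and 57.6 CPM in the libraries labelled shScr 1 to 4. The shEN1 #1 libraries had 73.7 and 69.3 CPM and the shEN1 #2 libraries 55.3 and 69.0 CPM. Its lowest values were in the libraries labelled shEN1 #2 replicate 1 and shScr 4, the pair that stood apart. The log2 fold change was -0.04 for both constructs together (SE 0.14), 0.05 for shEN1 #1 (SE 0.18) and -0.15 for shEN1 #2 (SE 0.18). The difference between the constructs, -0.20, was no larger than its SE of 0.20.

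Within the core, the order of the 3 partners depended on the length by which the whole gene count was divided. Per kb of canonical transcript, *EZH2* was 1.05 to 1.59 times as abundant as *SUZ12* and *EED* was 1.15 to 1.90 times as abundant as *SUZ12* over the 8 libraries. *EZH2* stayed below *EED* in 7 of them and reached 1.01 times its level in the library labelled shEN1 #2 replicate 1. Per kb of coding sequence, *EZH2* was 0.609 to 0.923 times as abundant as *SUZ12* and 0.478 to 0.757 times as abundant as *EED*, below both in all 8 libraries, and *EED* was 0.892 to 1.475 times as abundant as *SUZ12*.

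*JARID2*, an accessory subunit without demethylase activity that helps to bring PRC2 to its targets, had the lowest level per kb of the 9. Its values were 8.58, 6.36, 10.6 and 10.03 CPM in the libraries labelled shScr 1 to 4, 9.66 and 6.91 CPM with shEN1 #1 and 10.9 and 7.10 CPM with shEN1 #2. The levels in 5 libraries lay between 8.58 and 10.9 CPM and those in 3, labelled shScr 2, shEN1 #1 replicate 2 and shEN1 #2 replicate 2, between 6.36 and 7.10 CPM. The log2 fold change was -0.04 (SE 0.23, 95% interval -0.54 to 0.46). The 3 genes whose pattern over the 8 libraries was most like it were *XXYLT1*, *TYMS* and *ACSS1*, with root mean square differences of centred log2 CPM of 0.09, 0.11 and 0.11. *TYMS*, which makes thymidylate for DNA synthesis, likewise had its 4 lowest values, 67.8 to 71.7 CPM, in these 3 libraries and the one labelled shScr 1.

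No other PRC2 subunit passed the test between labels. Of 10 listed accessory genes 9 were tested, 2 higher and 7 lower with the shEN1 label, 0 with an unadjusted p below 0.05 in edgeR, and their median log2 fold change was -0.0087. *RBBP7*, a histone-binding WD40 protein, varied little, from 196 to 226 CPM, and its paralog *RBBP4* lay between 155 and 199.9 CPM. *PHF19*, a Polycomb-like subunit that reads H3K36 methylation, was at 252 CPM in the library labelled shScr 4 and 249.6 CPM in shEN1 #2 replicate 1, and at 175 to 194 CPM in the other 6. *MTF2*, another Polycomb-like subunit, was also highest in this pair, at 44.9 and 51.5 CPM against 30.1 to 42.3 CPM. *PHF1*, the remaining Polycomb-like gene, was at 0.353 to 4.96 CPM, with the highest value in the library labelled shScr 2. Its log2 fold change of -1.45 (SE 0.65) had an unadjusted p of 0.0504 and an adjusted p of 1.00 in the quasi-likelihood test of edgeR with Benjamini-Hochberg adjustment. In DESeq2 the unadjusted p was 0.0272, and for shEN1 #1 alone against shScr it was 0.0484 in edgeR, both with an adjusted p of 1.00. *PHF1* lies in a stretch of chromosome 6 (29 to 34 Mb) where 84.2% of 165 genes were below 1 CPM, against 37.7% of 809 on the rest of the chromosome. The part that this stretch has in the level of *PHF1* was not tested.

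PRC1, the complex that binds H3K27 methylation and ubiquitinates H2A, was represented by 19 tested genes of 20 listed. With the shEN1 label 13 were higher and 6 lower, 0 of them with an unadjusted p below 0.05 in edgeR, and the median log2 fold change was 0.02. *PHC2*, a Polyhomeotic subunit that clusters PRC1, was at 120 CPM in the library labelled shScr 4 and at 132 CPM in shEN1 #2 replicate 1, but at 269 to 309.9 CPM in the other 6. Its paralog *PHC1* was likewise lowest in this pair, at 13.4 and 13.0 CPM against 15.9 to 22.7 CPM. *BMI1*, which activates the ubiquitin ligase, lay between 60.6 and 80.3 CPM and the chromodomain gene *CBX6* between 52.4 and 80.7 CPM, with both labels spread over each range. The catalytic gene *RING1* lies in the chromosome 6 stretch named above and had at most 0.11 CPM. Its paralog *RNF2*, also catalytic, was at 24.4 to 33.5 CPM.

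The class I deacetylases were abundant. *HDAC1* was measured at 400.0, 367, 413 and 312 CPM in the libraries labelled shScr 1 to 4, at 401 and 365 CPM with shEN1 #1 and at 308 and 377 CPM with shEN1 #2. The levels of 6 libraries lay between 365 and 413 CPM and those of the pair labelled shScr 4 and shEN1 #2 replicate 1 at 312 and 308 CPM, 1 library of each label. Its log2 fold change was -0.04 (SE 0.13, 95% interval -0.32 to 0.24). With shEN1 #1 it was 0.04 (SE 0.16) and with shEN1 #2 -0.12 (SE 0.16).

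*HDAC2*, the paralog that shares its complexes, stood at 178, 193, 153 and 153 CPM in the libraries labelled shScr 1 to 4. It was at 175 and 155 CPM with shEN1 #1 and at 155 and 177 CPM with shEN1 #2. In 4 libraries it lay between 153 and 155 CPM and in 4 between 175 and 193 CPM, with 2 libraries of each label in both groups, and the log2 fold change was -0.03 (SE 0.11, 95% interval -0.29 to 0.22). Reads of an overlapping antisense gene could not be told apart from those of *HDAC2* if the counting ignored strand, which is not given in the sources used here.

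*HDAC1* counts were 2.25, 1.90, 2.70 and 2.04 times those of *HDAC2* in the libraries labelled shScr 1 to 4. The ratio was 2.29 and 2.36 with shEN1 #1 and 1.98 and 2.13 with shEN1 #2. The log2 ratio was 1.14 ± 0.22 for shScr and 1.13 ± 0.11 for shEN1 (SD, n = 4 each), and the difference of -0.01 was far smaller than the SDs. How far *HDAC1* exceeds *HDAC2* per length depends on the transcript. Against the canonical *HDAC2* transcript of 9.74 kb, of which 1.46 kb is coding, *HDAC1* was 8.74 to 12.4 times as abundant, but per kb of coding sequence only 1.92 to 2.74 times.

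The 26 listed partner subunits of SIN3, NuRD and CoREST were all tested, 12 higher and 14 lower with the shEN1 label, 0 with an unadjusted p below 0.05, and a median log2 fold change of -0.0027. *CHD4*, the main remodelling ATPase of NuRD, was steady at 244 to 296 CPM and *MTA2*, a NuRD scaffold, at 151 to 183 CPM. The related ATPase *CHD3* was lowest in the pair labelled shScr 4 and shEN1 #2 replicate 1, at 135 and 128 CPM against 182 to 238 CPM elsewhere. *RCOR2*, a CoREST gene, was near the detection limit at 0.176 to 0.522 CPM. Of the 9 other zinc-dependent deacetylases 4 were higher and 5 lower, again with 0 at an unadjusted p below 0.05 and a median of -0.05. *HDAC7* (85.9 to 115 CPM), *HDAC3* (58.3 to 77.97 CPM) and *HDAC4* (25.7 to 40.2 CPM) had the highest counts among them, and *HDAC11*, the only class IV enzyme, spread from 8.28 to 18.3 CPM with its 3 highest values in the libraries labelled shScr 3 and 4 and shEN1 #2 replicate 1. *HDAC9*, a class IIa gene, was low, at 1.55 to 4.34 CPM, and had the largest SD of log2 CPM of these 9, 0.45. With shEN1 #2 it was at -0.96 (log2, SE 0.42) relative to shEN1 #1, with an unadjusted p of 0.0449 and an adjusted p of 1.00 in edgeR.

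A further list held 8 repressor-associated genes, *EZH2* among them. The study pulled down their proteins with tagged EN1 from murine PDA cells that overexpressed it, not from SUIT2. At EN1 sites in murine cells it saw little H3K27 trimethylation and no clear change with EN1. From this it proposes that the repression does not depend on the catalytic activity of EZH2. With the shEN1 label 5 were higher and 3 lower, 0 had an unadjusted p below 0.05 in edgeR, and the median log2 fold change was 0.04. *WDR5*, a shared subunit of H3K4 methyltransferase complexes, lay between 100.5 and 135 CPM, and the SIN3 subunit *SINHCAF* between 68.4 and 85.4 CPM. *KAT2A*, an acetyltransferase, spanned 62.8 to 85.4 CPM, *SIRT7*, a NAD-dependent deacylase, 30.97 to 46.7 CPM and *MCPH1*, a DNA damage response gene, 10.9 to 16.4 CPM.

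The H3K27 demethylases differed widely in their listed counts. *KDM6A* had 0 counts in each of the 8 libraries, that is 0 of 283955576 counts. A floor of 3 counts in a library allows at most 0.0762 to 0.0921 CPM, which covers counting error only. *KDM6B* stood at 24.7, 15.5, 27.02 and 18.999 CPM in the libraries labelled shScr 1 to 4, at 18.96 and 27.4 CPM with shEN1 #1 and at 16.5 and 22.9 CPM with shEN1 #2. Against this floor, *KDM6B* was at least 173-fold to at least 284-fold higher than *KDM6A* per kb of canonical transcript, depending on the library. This is a difference in level only if reads of *KDM6A* were counted, which was not tested. A listing at 0 was common in these tables, with 25.9% of all identifiers and 18.2% of 18800 protein-coding genes at 0 in every library.

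*KDM6A* spans 44732434 to 44972024 on the X chromosome (GRCh37, plus strand). Its immediate coding neighbours, the phosphatase gene *DUSP21* at 28 kb and *DIPK2B* at 36 kb, were at 0 in all 8 libraries as well. Beyond them, the mitophagy receptor gene *FUNDC1*, 330 kb before *KDM6A*, had 887 to 1478 counts, and *ZNF674*, 1385 kb after it, had 100 to 237 counts. *MAOB* and *RP2* further out had 343 to 1334 and 1045 to 1924 counts. The 3 genes at 0 thus lie side by side between neighbours with reads, as the plot of counts along the X chromosome shows. Of the 16 neighbours plotted, *GPR82* and *PPP1R2C*, the farthest before *KDM6A*, were also at 0 in all 8 libraries, and *RGN* had 4 counts in all. Why these genes were at 0 was not tested, and the annotation used for counting is not given in the sources used here.

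**Figure D4:**
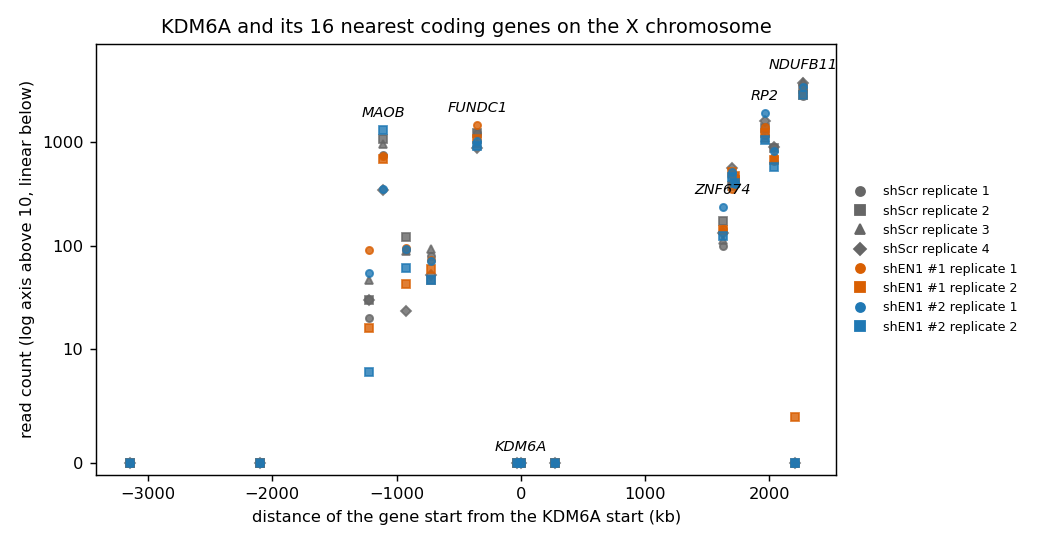
Read counts in each library of *KDM6A* and the 8 listed protein-coding genes on either side of it, against the distance in kb between gene starts; the vertical axis is linear up to 10 counts and logarithmic above. *KDM6A* and the neighbours at -29, 275, -2096 and -3149 kb are at 0 in all 8 libraries and *RGN* at 2205 kb has 4 counts in all, while *FUNDC1* at -350 kb has 887 to 1478 counts.

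*KDM6B*, which is inducible in many cell types, varied by 1.77 times between the lowest and the highest library. The libraries labelled shScr 1 and 3, shEN1 #1 replicate 2 and shEN1 #2 replicate 2 lay between 22.9 and 27.4 CPM and the other 4 between 15.5 and 18.999 CPM, with 2 libraries of each label on both sides. Its log2 fold change was -0.0078 (SE 0.21, 95% interval -0.48 to 0.47). For shEN1 #1 it was 0.11 (SE 0.27) and for shEN1 #2 -0.13 (SE 0.27), and the constructs did not differ beyond their error (-0.23, SE 0.31). *MTSS2*, *RRP1* and *TAPBPL* had the patterns most like it over the 8 libraries, with root mean square differences of 0.09, 0.09 and 0.10.

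*KMT2D*, an H3K4 monomethyltransferase of enhancers, was the most variable of the 9 and also had the largest fold change. It was measured at 118, 141, 229 and 172 CPM in the libraries labelled shScr 1 to 4, at 108 and 230.5 CPM with shEN1 #1, and at 182 and 203 CPM with shEN1 #2. The 2 libraries of shEN1 #1 were the lowest and the highest of all 8, so the construct gave no common level. The log2 fold change was 0.13 (SE 0.26, 95% interval -0.44 to 0.70, adjusted p = 1.00 in edgeR), and the coefficients of variation within labels were 28.9% and 29.03%, where counting error alone would give 1.28%. The value rests on single libraries. Without the library labelled shScr 1 it was 0.0024, without shScr 3 it was 0.33, without shEN1 #1 replicate 1 it was 0.31 and without shEN1 #1 replicate 2 it was -0.0089.

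The canonical *KMT2D* transcript, with 20.6 kb in 55 exons, is the longest among the members. For the 548 tested genes with a transcript over 10 kb, deviations of log2 CPM from each gene's mean over the 8 libraries were taken. Their median was -0.10 in the library labelled shScr 1, -0.06 in shEN1 #1 replicate 1 and 0.09 in shEN1 #2 replicate 1. In shScr 3 the median was -0.04, while *KMT2D* itself was at 0.45. A median does not show whether the single genes moved together. The range of *KMT2D* over the 8 libraries was 1.095 on the log2 scale and 1.06 after the median of these long genes was subtracted in each library, so it was nearly as large. The difference between labels was 0.12 before and 0.07 after the subtraction. The gene with the most similar pattern was *HSPG2* (root mean square difference 0.12), which encodes a basement membrane proteoglycan, and *SLC71A3P* (0.16) was also near. *HSPG2* had 312 CPM in the library labelled shEN1 #1 replicate 1 and 754 CPM in shEN1 #1 replicate 2, the libraries that also held the extremes of *KMT2D*.

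**Figure D5:**
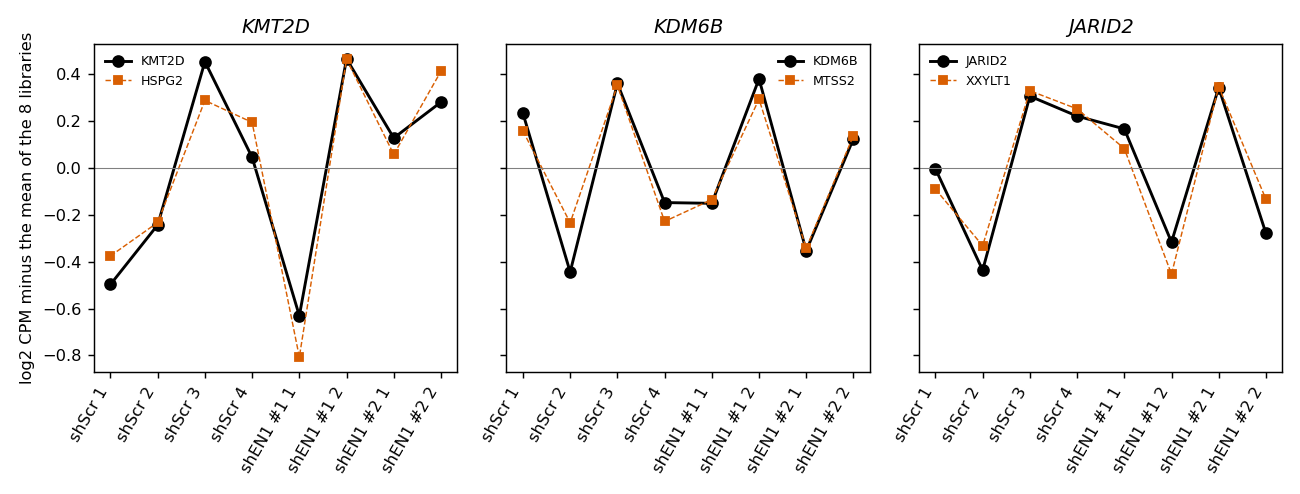
Log2 CPM minus the mean of the 8 libraries for the 3 most variable members (black) and the tested gene nearest to each (orange), by library; lines join libraries only to guide the eye. *KMT2D* dips in the libraries labelled shScr 1 and shEN1 #1 replicate 1, *KDM6B* in shScr 2 and shEN1 #2 replicate 1, and *JARID2* in shScr 2 and both second shEN1 replicates.

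Of the 12 H3K27 acetylases and subunits of the H3K4 methyltransferase complexes, 10 were higher and 2 lower with the shEN1 label, 0 with an unadjusted p below 0.05 in edgeR, and their median log2 fold change was 0.05. Of all tested genes 48.9% were higher. *KMT2A*, a related methyltransferase, was lowest in the same libraries as *KMT2D*, at 121 CPM in the one labelled shEN1 #1 replicate 1 and 130 CPM in shScr 1, against 159.5 to 221 CPM elsewhere. *KMT2B* did not share this, and was highest in the pair labelled shScr 4 and shEN1 #2 replicate 1, at 59.1 and 55.7 CPM. *CREBBP*, a histone acetyltransferase that acetylates H3K27, was lowest in that pair, at 67.9 and 75.4 CPM against 82.5 to 123 CPM. *PAXIP1*, a subunit of the KMT2D complex, was also lowest there, at 12.5 and 14.6 CPM against 24.04 to 32.9 CPM.

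Proliferation genes, set beside *EZH2* because its level is known to follow the cell cycle, did not pass the test between labels either. Of 10 genes 4 were higher and 6 lower with the shEN1 label, 0 had an unadjusted p below 0.05, and the median log2 fold change was -0.0055. *MKI67* ranged from 611 to 793 CPM, *TOP2A* from 508 to 736 CPM, *CCNB1* from 378 to 481 CPM and *PCNA* from 65.9 to 111 CPM. *CDK1* was at 216 to 230.0 CPM in the libraries labelled shScr 1 and 2 and shEN1 #1 replicate 1 and at 156 to 177 CPM in the other 5. *EZH2* did not follow that split, since 1 of these 3 libraries was among its lowest and another among its highest. Of the cell type markers, 4 of 6 epithelial genes were higher with the shEN1 label (median log2 fold change 0.02), as were 2 of the 4 tested genes of other cell types (median -0.125), and 0 had an unadjusted p below 0.05 between labels. Between the constructs *CD68* was at -1.27 (log2, SE 0.55) with shEN1 #2 relative to shEN1 #1, with an unadjusted p of 0.0486 and an adjusted p of 1.00 in edgeR.

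The results of the 9 members were examined again without the pair of libraries that stood apart. Without the libraries labelled shScr 4 and shEN1 #2 replicate 1, the fold changes lay between -0.12 and 0.145, and 0 members had an unadjusted p below 0.05. The libraries labelled shScr 3 and shEN1 #1 replicate 1 were also each other's nearest, at a root mean square log2 difference of 0.512. Nearness did not mark them out, since shScr 2 and shEN1 #2 replicate 2 differed by 0.488. *KMT2D* stood at 229 CPM in shScr 3, the highest of its label, and at 108 CPM in shEN1 #1 replicate 1, the lowest of all. Without shScr 3 and shEN1 #1 replicate 1 the log2 fold change of *KMT2D* was 0.51. Its unadjusted p in edgeR fell below 0.05, as it did for 46 of 14358 genes (0.32%). With both pairs left out the log2 fold change of *KMT2D* was 0.74 in the remaining 2 libraries of each label. The adjusted p was 0.169 in the quasi-likelihood test of edgeR with Benjamini-Hochberg adjustment. In this fit 1512 of 14273 genes (10.6%) had an unadjusted p below 0.05 in edgeR. Of the 9 members 1, *KMT2D*, was among them. *KMT2D* was thus the member whose value depended most on which libraries were compared, and it was not called in any of these fits.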

How the data were processed

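RNA-seq of SUIT2 cells was analysed in 8 libraries (4 shScr, 2 shEN1 #1, 2 shEN1 #2), grouped by their titles. The deposited files hold counts of reads per gene as whole numbers, which the authors made with HISAT2 and featureCounts. The methods name featureCounts for normalization as well, but the deposited values are whole and their totals differ between libraries, so they were treated as not normalized. The methods name hg19 for human samples, the submitters' processing notes list mm9, and the identifiers are those of human genes. The annotation, the strand setting and the tool versions are not given in the sources used here. The library totals, 33423590 to 37810604 counts, make counting error small for 9 of the 10 members.

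Identifiers were matched to symbols by NCBI gene number in a RefSeq table (23696 of 25702 matched). Genes were filtered with filterByExpr (minimum count 10), normalized with TMM and fitted over all genes in R 4.3.3 with edgeR 4.0.16 (robust glmQLFit, then glmQLFTest), at a Benjamini-Hochberg adjusted p below 0.05. Standard errors were obtained from the log2 fold change and the F statistic, and log2 CPM uses a prior count of 2. The main fit pooled both constructs, as the study did, and a fit with 3 groups separated them. DESeq2 1.42.0 and limma 3.58.1 (voom) were alternatives, as were other scalings, filters, blocks and left-out libraries. A block on the order of input numbers in the headers and leaving out libraries in the fit with 3 groups were chosen after seeing the data. Positions and canonical transcripts are from GENCODE 44 lifted to GRCh37 (93.4% of tested genes have a length), and start windows from RefSeq on GRCh38.p14, a different build.

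The members and lists were chosen with earlier results of these data known. Named genes are every member, *EN1* and, from each list, the 3 with the highest mean CPM, the 2 with the largest SD of log2 CPM and any with an unadjusted p below 0.05. For the 3 most variable members the 3 nearest patterns are named too, except 1 gene that is not reported here. *RING1*, *RNF2*, *VAMP7*, *SUZ12P1*, the cell type markers and the neighbours of *KDM6A* were named outside this rule, after their values were seen.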

Additional observations from a re-analysis of the deposited data

How the results depend on the processing

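The count of 0 members called held under every scaling, filter, test, block and left-out library tried, and in the comparisons of each construct. The direction of a member's log2 fold change did not always hold, and most values are smaller than their errors. The cause of these turns was not tested. Over all genes, DESeq2 called 2 (*VAMP7* and an identifier without a symbol) and edgeR called 1 (*VAMP7*) with the replicate block, without the libraries labelled shScr 4 and shEN1 #2 replicate 1, and without these and shScr 3 and shEN1 #1 replicate 1, while an unadjusted p below 0.05 took 44.

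Leaving out each library in turn gave 0 to 1 gene called, the 1 without shScr replicate 4. The log2 fold changes then ran from -0.21 to 0.032 for *EZH1*, 0.06 to 0.15 for *EZH2*, -0.0090 to 0.12 for *SUZ12*, -0.12 to 0.035 for *EED*, -0.17 to 0.055 for *JARID2*, -0.12 to 0.029 for *HDAC1*, -0.078 to 0.038 for *HDAC2*, -0.15 to 0.12 for *KDM6B* and -0.0089 to 0.33 for *KMT2D*. The differences in log2 ratio ran from 0.02 to 0.28 for *EZH2*:*EZH1* and from -0.08 to 0.09 for *HDAC1*:*HDAC2*.

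Directions also turned elsewhere. Without a filter *KDM6B* was at 0.0034. With the libraries labelled shScr 4 and shEN1 #2 replicate 1 left out *KDM6B* was at 0.0405. With shScr 3 and shEN1 #1 replicate 1 left out *EZH1* was at 0.0059, *SUZ12* at -0.028 and *KDM6B* at 0.17. With both pairs left out *EZH1* was at 0.062, *SUZ12* at -0.14 and *KDM6B* at 0.32, and 1512 genes had an unadjusted p below 0.05 in a fit with 2 libraries per label.

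No label says whether same-numbered libraries were made together. The deviations of same-numbered libraries, between labels or between constructs, correlated at -0.332 to 0.437. The highest value was for shScr 2 with shEN1 #2 replicate 2. Such correlations cannot decide whether the replicate numbers mark pairs. With the replicate block the count of genes called was 1, 271 genes had an unadjusted p below 0.05, and *EZH1* was at 0.21, *SUZ12* at -0.029, *JARID2* at 0.20 and *KDM6B* at 0.0705, all turned in sign. Without a turn *KMT2D* was at 0.45, *EED* at -0.22 and *HDAC2* at -0.16 with it. For the 9 tested members and *PHF1* the spread between libraries of a label exceeded counting error, while for *KDM6A*, at 0, depth sets the limit.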
